A study of Mus musculus with 8 samples.

Results

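The bone morphogenetic protein (BMP) genes examined here were 10 genes looked up by symbol in the counts of every library: the ligands Bmp2, Bmp4 and Bmp7, the receptors Bmpr1a and Bmpr2, the secreted antagonists Grem1 and Nog, and the inhibitors Smad6, Smad7 and Bambi. All 10 were among the 23284 mouse gene symbols of the files. ID8 IP2 is a tumor line from mouse ovarian surface epithelium, obtained by repeated passage of ID8 cells through mice. In each of Sets 1 to 4, cells received a pCCL lentivirus that encodes the intracellular part of Notch3 with an HA tag, from codon 1664 to codon 2318, and GFP after an IRES (Notch3IC), and matched cells received pCCL without an insert (Control). By the methods of the study all lines were derived from cells carrying luciferase and mCherry. From later testing, the paper proposes that all of these lines were positive for mycoplasma. Each group held 4 libraries, 1 per set. The depth was 19013578 to 28208072 counted reads in Control and 15524262 to 27107061 in Notch3IC.

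BMPs are secreted dimers of the TGF-beta superfamily. They join type I and type II serine/threonine kinase receptors, and the type I receptor phosphorylates Smad proteins that enter the nucleus with Smad4 and act on targets such as the Id genes. Antagonists such as gremlin and noggin hold the ligands outside the cell, Bambi is a receptor-like protein that lacks a kinase domain, and the inhibitory Smads 6 and 7 act inside the cell. BMPs and their antagonists are made by several cell types of the ovary.

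The labels were first checked with the expressed insert. Notch3 was at 38.7, 40.6, 70.8 and 42.0 normalized counts in Control (Sets 1 to 4 in order, here and throughout) and at 4321, 467, 9219.8 and 5842 in Notch3IC. Normalized counts are reads scaled by library size and composition to the mean library total. Notch3 was higher in every Notch3IC line and least so in Set 2, with log2 ratios within the sets of 6.79, 3.51, 7.01 and 7.10. Reads of the insert and of the endogenous gene are not separated in the counts. A gene was called when edgeR's quasi-likelihood test gave an adjusted p (Benjamini-Hochberg, 12430 genes) below 0.1 and its log2 fold change (log2FC) reached 1 in size. Notch3 and the Notch targets Hey1, Heyl and Nrarp all rose by this rule, each with an adjusted p of 0.0169. When the whole of Set 3 or of Set 4 was removed edgeR with condition alone called 0 of these 4 genes, and 1 and 0 of all the 12418 and 12378 genes tested in those fits. Each of the 4 had an unadjusted p below 0.05 in both, as had 8.87% and 8.17% of all genes. With the matched set as a block, edgeR called 3 of the 4 without Set 3 (Hey1, Heyl and Nrarp) and all 4 without Set 4.

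None of the BMP genes passed the test with condition alone. Of the 10, 8 had enough reads to be tested and 0 of 8 were called, while 4.14% of all genes tested were called (3.4% higher and 0.74% lower). Bmpr2 was the 1 gene of the 8 with an unadjusted p below 0.05, which 18.4% of all genes had. DESeq2 called 0 of the 9 it tested, with 2 at an unadjusted p below 0.05, and 6.42% of all its genes. In edgeR with condition alone the log2FC was positive for 5 genes and negative for 3, with a median of 0.31 against -0.0095 over all genes. With the matched set as a block Bmp2 turned from 0.20 to -0.029, and the others kept their sign. In none of the 8 were the Control and Notch3IC libraries fully apart, as they were for 10.8% of all genes.

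When the matched set entered the fit as a block, Grem1 was called higher, and Smad7 and Bmpr2 passed the adjusted p but not the fold-change limit. That made 1 of 8 called, beside 7.72% of all genes (5.19% higher), and 3 of 8 past the adjusted p alone, beside 27.1% of all genes. Grem1, Smad7 and Bmpr2 were each higher in Notch3IC in 4 of 4 sets, as were 21% of all genes.

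**Figure D1:**
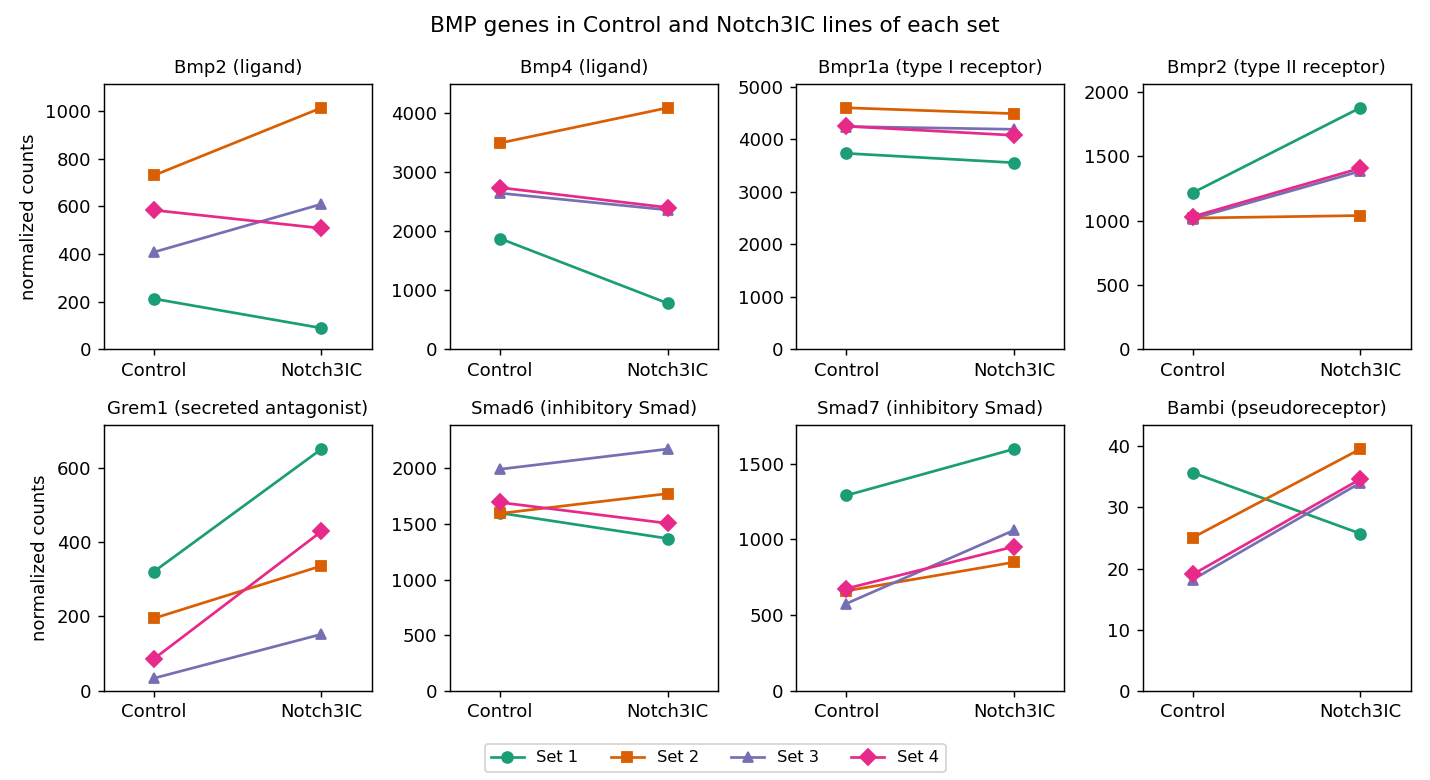
Normalized counts (vertical axis, from 0) of the 8 tested BMP genes in the Control and Notch3IC library of each set; a line joins the libraries of 1 set. Grem1, Smad7 and Bmpr2 were higher in Notch3IC in 4 of 4 sets, while their starting level differed between sets.

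Promoter windows from 250 bases before to 50 bases after the start site (RefSeq, GRCm38.p6) were matched for 5 of the 10 genes, namely Bmp4, Bmpr1a, Bmpr2, Grem1 and Smad6. They were searched on both strands for TGGGAA, the core bound by the Notch partner Rbpj, and for GGCGCC, a GC-rich element bound by BMP Smads, which reads the same on both strands. The windows of Grem1 (chr2:113758599-113758898, minus strand) and Bmpr2 (chr1:59764029-59764328, plus strand) are printed because these genes passed the adjusted p with the block, a choice made after their values were seen. Capitals mark every match of either motif.
Grem1: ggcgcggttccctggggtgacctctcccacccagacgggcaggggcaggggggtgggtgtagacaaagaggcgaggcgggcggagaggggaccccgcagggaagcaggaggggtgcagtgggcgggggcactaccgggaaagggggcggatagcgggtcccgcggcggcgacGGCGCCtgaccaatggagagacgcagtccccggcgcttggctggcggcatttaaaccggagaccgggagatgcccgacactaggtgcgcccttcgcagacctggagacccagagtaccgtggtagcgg
Bmpr2: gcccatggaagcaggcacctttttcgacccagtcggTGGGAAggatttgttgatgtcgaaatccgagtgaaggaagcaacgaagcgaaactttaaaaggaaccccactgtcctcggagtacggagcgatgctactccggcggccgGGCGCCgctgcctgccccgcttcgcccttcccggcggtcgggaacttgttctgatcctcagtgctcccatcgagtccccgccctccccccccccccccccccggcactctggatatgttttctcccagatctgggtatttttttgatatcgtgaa
The Bmpr2 window held TGGGAA from 214 bases and GGCGCC from 105 bases before the start site. The Grem1 window held GGCGCC from 78 bases before it and no TGGGAA. Bmpr1a had 1 match of each motif, and Bmp4 and Smad6 had neither, and no match of one motif overlapped one of the other. Of all 32851 windows in the table, 25.6% held TGGGAA and 11.9% held GGCGCC, and a match is a description of letters, not of binding.

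Levels were compared between genes as normalized counts per kb of annotated exon (GENCODE M21, GRCm38; mean ± SD of 4 libraries). In Control, Bmp4 was the most abundant of the 10 genes at 1196 ± 295 per kb, with all 4 libraries above those of the next gene. Bmpr1a (662 ± 56.2) and Smad6 (537 ± 58.5 per kb) followed and overlapped each other. The next levels per kb were those of Smad7 (177 ± 73.0), Bmp2 (136 ± 62.9), Bmpr2 (59.6 ± 5.43) and Grem1 (38.2 ± 30.6), each overlapping its neighbor in this order. Smad6 stood clear above Smad7, and Grem1 clear above Bambi (4.83 ± 1.59 per kb in Control), in both groups. In Notch3IC, Grem1 (94.3 ± 49.9 per kb) had a higher mean than Bmpr2 (79.4 ± 19.1 per kb), with overlapping libraries. The exon total of Bmpr2, 17983 bases, lowers its value per kb.

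**Figure D2:**
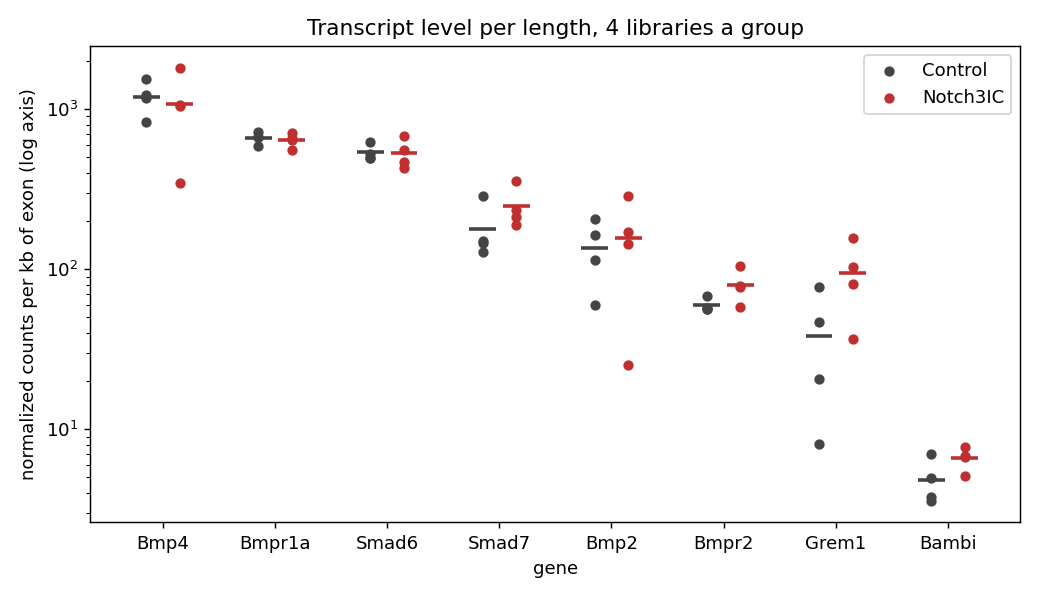
Normalized counts per kb of exon (vertical log axis) of the 8 tested BMP genes in the order of their Control means; points are libraries and bars are means of 4. Bmp4, Bmpr1a and Smad6 had the highest means in both groups and Bambi the lowest.

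The ligands varied more between sets than between conditions. Bmp4, which signals through Bmpr1a and Bmpr2, was at 1875, 3494, 2645 and 2738 normalized counts in Control and at 781, 4089.6, 2361 and 2402 in Notch3IC. Set 1 was the lowest and Set 2 the highest in both groups, which overlapped. The log2FC was -0.16 ± 0.42 (SE, 95% interval -1.12 to 0.80, adjusted p = 0.892). The log2 ratios within the sets were -1.26, 0.23, -0.16 and -0.19, and when the Notch3IC library of Set 1 was removed the log2FC turned to 0.13 (adjusted p = 0.798).

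Bmp2, a close paralog of Bmp4, shared with it the lowest set and the highest. It was at 212, 729, 408 and 584 normalized counts in Control and at 89.5, 1013, 609 and 508 in Notch3IC. Set 1 was lowest and Set 2 highest in both groups, while Sets 3 and 4 ranked differently for the ligands in Notch3IC. The log2 ratios of -1.24, 0.47, 0.58 and -0.20 split the sets 2 and 2. The log2FC was 0.20 ± 0.62 (SE, 95% interval -1.23 to 1.62, adjusted p = 0.911) with condition alone and -0.029 ± 0.30 (SE, 95% interval -0.78 to 0.72, adjusted p = 0.952) with the block. The first interval reached past 1 in both directions. Bmp7, a ligand of many epithelia, had 1 read in the Control library of Set 2 and 0 in the other 7 libraries, where a count of 0 allows up to 3 reads, and no fold change is given.

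Bmpr1a had the narrowest interval of the 8 genes. This type I receptor for Bmp2 and Bmp4 was at 3733, 4601, 4244 and 4249 normalized counts in Control and at 3555, 4489.6, 4191 and 4077 in Notch3IC. It was lower in Notch3IC in 4 of 4 sets, as were 19.4% of all genes, by log2 ratios of -0.070, -0.035, -0.018 and -0.060. The log2FC was -0.045 ± 0.10 (SE, 95% interval -0.28 to 0.19, adjusted p = 0.872), so a change of 1 lay outside the interval.

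Bmpr2, the type II receptor, was at 1218, 1021, 1016 and 1032 normalized counts in Control and at 1878, 1040.3, 1385 and 1408 in Notch3IC. The Notch3IC library of Set 2 lay within the Control range and the other 3 lay above it. The log2FC was 0.41 ± 0.17 (SE, 95% interval 0.030 to 0.80, adjusted p = 0.236) with condition alone and 0.39 ± 0.10 (SE, 95% interval 0.14 to 0.64, adjusted p = 0.0591) with the block. Within the sets the log2 ratios were 0.62, 0.028, 0.45 and 0.45, the smallest being in Set 2. Notch3 was also least raised there, but a link was not tested. Smad7 had its smallest ratio in Set 1 (0.31). With the block, the adjusted p was 0.189, 0.00412, 0.215 and 0.219 on removal of Sets 1 to 4 in turn, and of these fits on 3 sets it passed in the one without Set 2. With condition alone, removal of the Set 2 Notch3IC library gave a log2FC of 0.54 and an adjusted p of 0.0495, and removal of the Set 1 Notch3IC library gave 0.26 and 0.322.

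Grem1 had the largest log2FC of the 8 genes. Gremlin 1, its product, is a secreted protein that binds Bmp2, Bmp4 and Bmp7 and keeps them from their receptors. The gene lies on chromosome 2 from 113746164 to 113758646 (GRCm38, minus strand), and no other annotated exon overlaps its exons. Grem1 was at 320.3, 195, 33.5 and 85.6 normalized counts in Control and at 649.8, 336, 152 and 428 in Notch3IC. Each Notch3IC line exceeded its own Control, but the Control libraries alone spanned 9.56-fold, and those of Sets 1 and 2 lay above the Notch3IC library of Set 3. The log2FC was 1.31 ± 0.66 (SE, 95% interval -0.21 to 2.82, adjusted p = 0.343) with condition alone, and Grem1 was not called. With the block it was 1.52 ± 0.30 (SE, 95% interval 0.78 to 2.27, adjusted p = 0.0360), and Grem1 was called. The log2 ratios were 1.02, 0.78, 2.16 and 2.32. In that block fit edgeR also called higher all 5 tested smooth muscle and mural markers and 2 of 4 tested fibroblast markers. The share of all genes called higher was 5.19%. The fibroblast marker Dcn was lower (log2FC -0.53, adjusted p = 0.0275), under the fold-change limit, and Pdgfra did not pass (0.52, adjusted p = 0.120). Of 8 tested ovarian surface epithelium markers 5 were called lower, beside 2.53% of all genes.

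The call with the block was lost on removal of Set 1, Set 3 or Set 4 and kept on removal of Set 2. With the block, the log2FC and adjusted p of Grem1 were 1.73 and 0.128 on removal of Set 1, 1.36 and 0.151 on removal of Set 3, and 1.26 and 0.136 on removal of Set 4, none of them called. On removal of Set 2 they were 1.75 and 0.00866, a call. Over all genes, the block fits on 3 sets called 69, 1330, 81 and 159 genes on removal of Sets 1 to 4 in turn, against 960 with all 4 sets. DESeq2 with the block, chosen after the data were seen, also called Grem1 (log2FC 1.53, adjusted p = 1.31e-05).

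**Figure D3:**
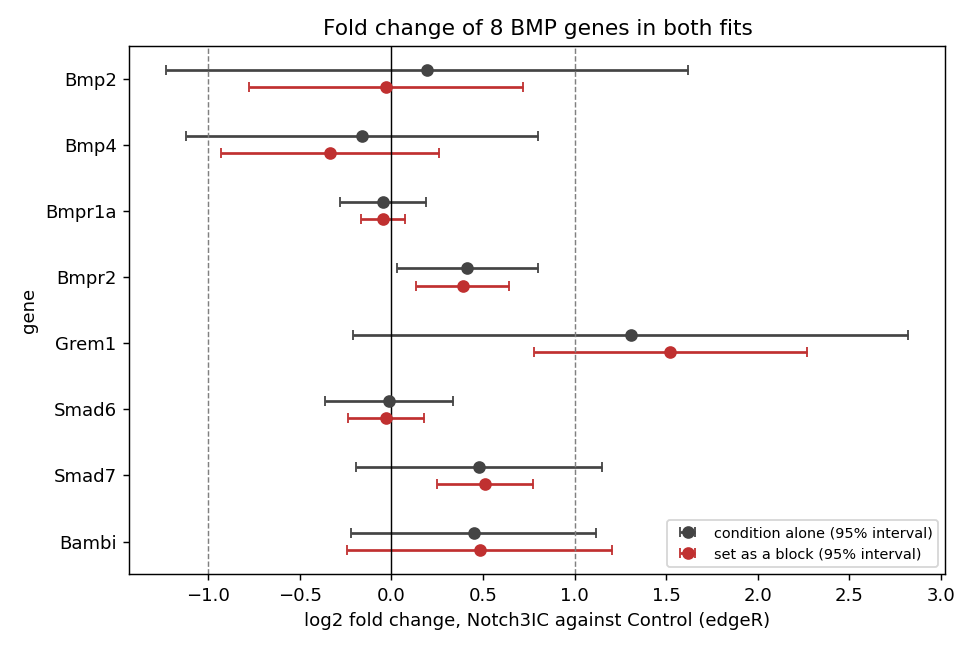
Log2 fold change of the 8 tested BMP genes (horizontal axis) from edgeR with condition alone and with the set as a block; bars are 95% intervals and dashed lines mark a change of 1 in either direction. The interval of Grem1 ran from -0.21 to 2.82 with condition alone and from 0.78 to 2.27 with the block.

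The antagonist was also set against its ligands, as a description. Per kb, Grem1 came to 8.64%, 2.67%, 0.626% and 1.49% of the sum of Bmp2 and Bmp4 in Control and to 42.1%, 3.84%, 3.0% and 8.53% in Notch3IC. This share exceeded that of the matched Control in 4 of 4 sets, and the sum of both ligands exceeded Grem1 in every library. Bmp2 by itself was below Grem1 in both libraries of Set 1, at 59.7 against 77.2 per kb in Control and 25.2 against 157 per kb in Notch3IC, and above it in the other 6. In Set 1 and in Set 4 the larger share came with more Grem1 and with less Bmp2 and Bmp4. In Set 3 Bmp4 was lower and Bmp2 higher, and in Set 2 both ligands were higher. Nog, which encodes the antagonist noggin, had 17, 0, 0 and 1 reads in Control and 1, 0, 2 and 1 in Notch3IC. A single Control library held most of these reads, and Nog was not tested.

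Among 10995 tested genes with a mean of at least 50 normalized counts, those closest to Grem1 by the root mean square difference of the 4 log2 ratios were Tgfb1i1 (0.0949), Podnl1 (0.107), Slc43a1 (0.146), 1190002H23Rik (0.196) and Setbp1 (0.211). Of these, Slc43a1 (log2FC 1.61, adjusted p = 0.0287) and Setbp1 (log2FC 1.53, adjusted p = 0.0362) were called with condition alone, beside 3.4% of all genes called higher. Because these genes were picked for ratios like those of Grem1, their rise follows from the choice. The likeness rests on 4 ratios from the same libraries.

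Smad7, which inhibits both TGF-beta and BMP receptors, was at 1292, 660.1, 576 and 675 normalized counts in Control and at 1598, 849.9, 1061 and 953 in Notch3IC. Set 1 was the highest in both groups, and its Control library exceeded 3 of the 4 Notch3IC libraries. The log2FC was 0.48 ± 0.29 (SE, 95% interval -0.19 to 1.15, adjusted p = 0.441) with condition alone and 0.51 ± 0.11 (SE, 95% interval 0.25 to 0.78, adjusted p = 0.0386) with the block, with log2 ratios of 0.31, 0.36, 0.88 and 0.50. On removal of the Set 1 Control library the adjusted p with condition alone became 0.0943 (log2FC 0.81), still under the fold-change limit. Removal of the Set 1 Notch3IC library gave a log2FC of 0.26 (adjusted p = 0.605), and removal of both Set 1 libraries 0.58 (adjusted p = 0.0709). With the block the adjusted p was 0.129, 0.0190, 0.136 and 0.159 on removal of Sets 1 to 4 in turn.

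Smad6, the inhibitory Smad that acts mainly on BMP receptors, was at 1598, 1595, 1993 and 1693 normalized counts in Control and at 1369, 1773, 2174 and 1505 in Notch3IC. The sets split 2 higher and 2 lower, and its log2FC was -0.012 ± 0.15 (SE, 95% interval -0.36 to 0.34, adjusted p = 0.979). Whether Smad6 and Smad7 differed in response was not tested. Bambi, the pseudoreceptor, was counted from 19 to 41 reads per library. It was at 35.7, 25.1, 18.2 and 19.0 normalized counts in Control and at 25.7, 39.6, 34 and 34.6 in Notch3IC. Set 1 went against the other 3 sets, and the log2FC was 0.45 ± 0.29 (SE, 95% interval -0.22 to 1.12, adjusted p = 0.469). It became 0.69 (adjusted p = 0.222) without the Set 1 Control library and 0.79 (adjusted p = 0.138) without Set 1.

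Of 55 other genes of the BMP pathway, grouped by role, 38 had enough reads to be tested. Of these, 6 were called higher and 1 lower, or 18.4%, beside 4.14% of all genes, and the median log2FC was 0.17. In 9 the Notch3IC libraries all lay above the Control libraries, as they did for 7.08% of all genes. The called genes were Gdf6, Rgma, Fst, Bmp1, Id3, Id4 and Dlx5. Calls over all genes fell from 515 to 83 and 110 without the Set 3 or the Set 4 Control library, where 1 pathway call was left (Fst). They fell to 230 without the Set 3 Notch3IC library, with 4 left (Bmp1, Fst, Id4 and Rgma), and to 171 without the Set 4 Notch3IC library, with 2 left (Fst and Rgma). When the whole of Set 3 or of Set 4 was removed edgeR with condition alone called 0 of the 38, beside 1 and 0 of all genes, and 9 of the 38 had an unadjusted p below 0.05 each time, beside 8.87% and 8.17% of all genes. In those fits all 7 genes kept their sign, with log2FC sizes from 1.03 to 3.86 without Set 3 and from 1.25 to 3.39 without Set 4. They kept it too without the Set 3 or the Set 4 Control library (1.42 to 4.02 and 1.31 to 3.75). Without the Set 3 or the Set 4 Notch3IC library the sizes were 0.99 to 3.78 and 1.31 to 3.59, with signs kept. In the fit on all sets that gave the 7 calls, the mural markers Cspg4 and Pdgfrb were called higher and the epithelial markers Msln and Upk1b lower, and their part in these calls was not tested. Each group by role stands beside the same background of 3.4% of all genes called higher and 0.74% lower.

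Of 11 other ligands 3 were tested, and 1 was called. Gdf6, a BMP-like ligand of skeletal and eye development, was at 639.5, 230.4, 690.1 and 425 normalized counts in Control and at 193, 132, 74.5 and 76.9 in Notch3IC. All 4 Notch3IC libraries lay below every Control library, as they did for 3.75% of all genes. Gdf6 fell, with a log2FC of -2.06 ± 0.43 (SE, 95% interval -3.04 to -1.09, adjusted p = 0.0422). Bmp6 was the most counted ligand of the list over all libraries, though Gdf6 lay above it in every Control library. Bmp6 was at 158, 112, 288 and 199.8 normalized counts in Control and at 357, 92.3, 1027 and 565 in Notch3IC, with Set 2 alone going down. Its log2FC was 1.43 ± 0.62 (SE, adjusted p = 0.263) with condition alone and 1.16 ± 0.34 (SE, adjusted p = 0.0740) with the block, where it was called. That call was kept on removal of Set 2 and lost on removal of Set 1, Set 3 or Set 4. With condition alone, Bmp6 was called without the whole of Set 2 or the Set 2 Notch3IC library.

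Of 9 other receptors and co-receptors 8 were tested, with 1 called higher and 0 lower. Rgma, a membrane-anchored BMP co-receptor, rose from 174 ± 23.6 (SD) normalized counts over the 4 Control lines to 616 ± 253 over the 4 Notch3IC lines, with a log2FC of 1.83 ± 0.33 (SE, adjusted p = 0.0288). The type I receptor Acvr1, the most counted of the list, went from 1551 ± 265 (SD) normalized counts over the 4 Control lines to 2527 ± 367 over the 4 Notch3IC lines. The groups of Acvr1 did not overlap, and its log2FC of 0.70 ± 0.15 (SE, adjusted p = 0.0467) passed the adjusted p and not the fold-change limit.

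Of 18 other antagonists and extracellular modulators 11 were tested, with 2 called higher and 0 lower. Fst encodes follistatin, which binds activins and some BMPs. It was at 291, 370.1, 362 and 240.2 normalized counts in Control and at 1977, 731, 1725 and 1104 in Notch3IC, without overlap, and rose with a log2FC of 2.13 ± 0.31 (SE, 95% interval 1.42 to 2.85, adjusted p = 0.0187). Bmp1, despite its name, encodes a metalloprotease that cleaves chordin and procollagens, and it rose from 1737 ± 301 (SD) normalized counts over the 4 Control lines to 5258 ± 2172 over the 4 Notch3IC lines, with a log2FC of 1.60 ± 0.31 (SE, adjusted p = 0.0359). Fstl1, a secreted follistatin-like glycoprotein, was the most counted of the list over all libraries, though Crim1 lay above it in every Control library. The log2FC of Fstl1 was 0.93 ± 0.25 (SE, adjusted p = 0.0864), under the fold-change limit. With condition alone Fstl1 was called without the Set 1 Control library, the Set 2 Notch3IC library, the whole of Set 1 or the whole of Set 2. With the block it was called without Set 2.

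All 9 BMP Smads and intracellular regulators were tested, and edgeR called 0, with 2 at an unadjusted p below 0.05, as DESeq2 called 0. The Smad corepressor Ski was the most counted, with a log2FC of 0.28 ± 0.15 (SE, adjusted p = 0.359).

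Of 8 BMP target genes 7 were tested, with 3 called higher, beside 3.4% of all genes, and 0 lower. Id3, an inhibitor of bHLH factors, was at 3916, 3093, 3709 and 2959 normalized counts in Control and at 6112, 4213, 15112 and 10085 in Notch3IC. It rose with a log2FC of 1.38 ± 0.36 (SE, 95% interval 0.56 to 2.20, adjusted p = 0.0797). With condition alone its call was lost in each removal from Sets 3 and 4 given above. It was also lost without the Set 1 Control library (log2FC 1.45), the Set 2 Control library (1.33) or the whole of Set 1. Id4 had 8, 6, 8 and 5 reads in Control and 82, 7, 150 and 204 in Notch3IC and rose with a log2FC of 3.95 ± 0.76 (SE, adjusted p = 0.0359). Dlx5, a homeobox gene of bone development, rose from 137 ± 81.3 (SD) normalized counts over the 4 Control lines to 527 ± 111 over the 4 Notch3IC lines, with a log2FC of 1.95 ± 0.42 (SE, adjusted p = 0.0467). Id1 and Id2, picked after their values were seen, had log2FC values of 0.18 and -0.15 (adjusted p = 0.796 and 0.827) and were not called.

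**Figure D4:**
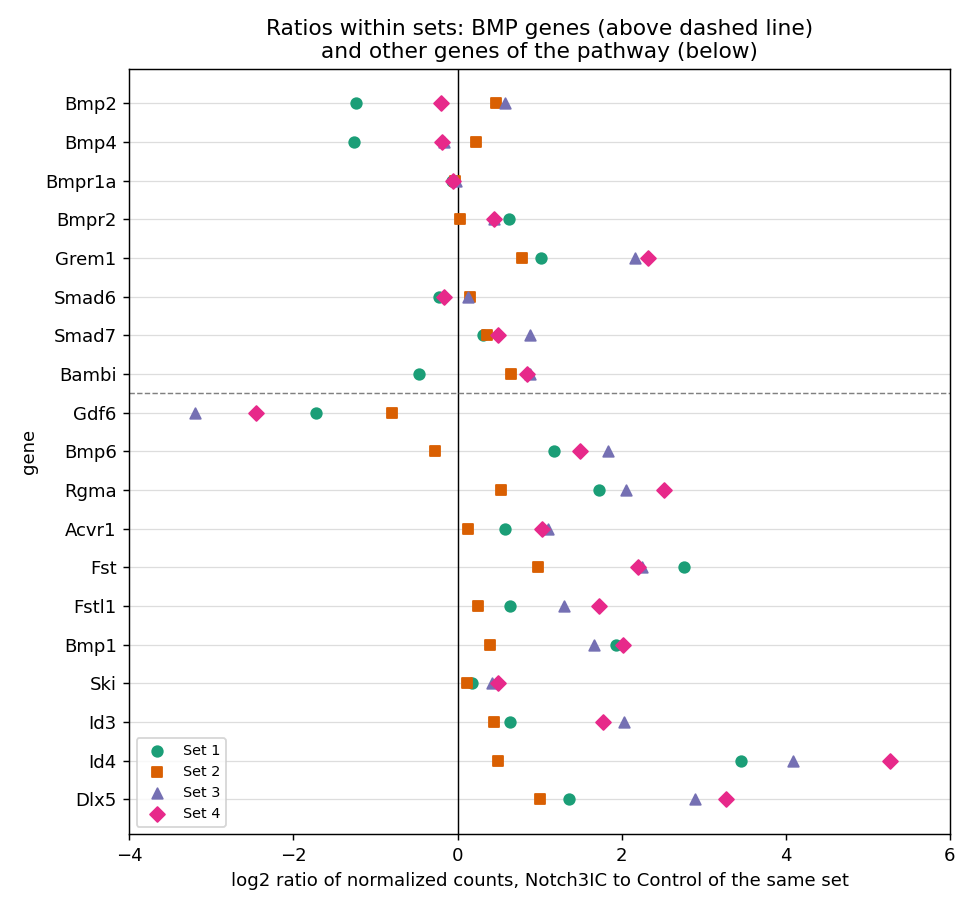
Log2 ratio of normalized counts, Notch3IC to Control of the same set (horizontal axis), for the 8 tested BMP genes above the dashed line and the other named pathway genes below it; each point is 1 set. Set 2 had the lowest ratio of Grem1 (0.78), Fst (0.98) and Id4 (0.49), and Set 1 had that of Bmp2, Bmp4, Bmpr1a, Smad6, Smad7 and Bambi.

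Markers of the labelled tissue and of other cell types were read in the same libraries, as sums in counts per 1e6 reads (CPM). Of 10 ovarian surface epithelium markers 9 were in the files and all 9 had reads, led by Upk3b, with Krt7 at 1 to 46 reads per library. They summed to 1114, 2021, 3062 and 2942 CPM in Control and 323, 1288, 1085 and 846 CPM in Notch3IC, lower in 4 of 4 sets. With condition alone edgeR called 2 of 8 tested lower (Msln and Upk1b), beside 0.74% of all genes. With the block it called 5 of 8 lower (Krt19, Msln, Upk3b, Upk1b and Bnc1), beside 2.53% of all genes. DESeq2 called 5 of 9 lower (Krt7, Krt19, Msln, Upk3b and Upk1b), beside 192 of the 14019 genes it tested. The 8 smooth muscle and mural markers, led by Acta2, summed to 1531, 493, 319.8 and 129 CPM in Control and 3525, 838, 1344 and 1078 CPM in Notch3IC. With condition alone edgeR called 2 of 5 tested higher (Cspg4 and Pdgfrb), beside 3.4% of all genes. With the block it called all 5 higher (Acta2, Cnn1, Tagln, Cspg4 and Pdgfrb), beside 5.19%. DESeq2 called 3 of 7 higher (Rgs5, Cspg4 and Pdgfrb), beside 708 of the 14019 genes it tested. The 6 fibroblast markers, led by Col1a1, summed to 7317, 5478, 4183 and 3173 CPM in Control and 14264, 6669, 8295 and 10164 CPM in Notch3IC. With condition alone edgeR called 0 of 4 tested (2 at an unadjusted p below 0.05). With the block it called 2 higher (Col1a1 and Col1a2), beside 5.19% of all genes. DESeq2 called 1 higher (Col1a2), beside 708 of the 14019 genes it tested. The muscle and fibroblast sums were higher in Notch3IC in 4 of 4 sets and highest in Set 1, as was Grem1. The epithelial sum was lowest in Set 1 in both groups. Single markers differed from these sums. The fibroblast marker Dcn was lower in Notch3IC in 4 of 4 sets (edgeR with the block, log2FC -0.53, adjusted p = 0.0275). Dcn and Pdgfra were lowest in Set 1 in both groups, and in Notch3IC Cspg4 and Pdgfrb were highest in Set 4. The part of these markers in the values of Grem1 was not tested. In bulk RNA, fewer cells of a type and less RNA per cell cannot be told apart. The 8 leukocyte markers summed to at most 5.44 CPM in any library, with Emr1 and Cd3e at 0 reads in all and Cd68 the most abundant. The sum was lower in Notch3IC in 3 of 4 sets. Of 2 tested, 1, Csf1r, was called higher by edgeR (beside 3.4% of all genes), with the block (5.19%) and by DESeq2 (708 of 14019). Csf1r had 9, 10, 7 and 9 reads in Control and 36, 10, 22 and 28 in Notch3IC. The 7 endothelial markers summed to at most 2.20 CPM, and edgeR called 0 of 2 tested with or without the block (0 at an unadjusted p below 0.05), as did DESeq2.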

How the data were processed

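Polyadenylated RNA of 4 Control and 4 Notch3IC lines was sequenced as single-end reads. The authors deposited unnormalized counts for each gene symbol, a table for each library, and the submitters' processing notes name TopHat, Cufflinks, DESeq and the mm9 build. Tool versions, annotation and strandedness are not given in the sources used here, so reads of genes that overlap on opposite strands cannot be told apart. In GENCODE M21 such overlap covers 4.57% of the exon bases of Bmpr1a, 3.96% of Bmp4, 5.74% of Bmp6 and 4.65% of Rgma. It covers 4.44% of Id4, 2.51% of Fst, 3.82% of Chrd and 2.05% of Crim1. For Notch3 and Nrarp it is 6.03% and 79.4%.

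The lines were compared with edgeR 4.0.16 in R 4.3.3 (TMM, filterByExpr by condition, robust quasi-likelihood F test) with condition as the only term. The SE is the size of the log2 fold change over the square root of F. For log2 ratios within a set 0.5 was added to each normalized count, with no test. By the study's methods a set is a matched pair from 1 infection, and for the 2 libraries of a set the deviations from the group means had correlations of 0.40 to 0.80, against -0.50 to 0.37 for crossed pairs, so the set was fitted as a block as an alternative. No 2 libraries of a group agreed within sampling noise. With condition alone the p-values measure the spread between these lines. With the block they measure how the difference between matched lines varied across the sets.

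The genes, lists and tests were chosen with earlier results of these data known. All 10 genes are named, and of each list the called genes, the most counted gene and any gene called with the block alone. Alternatives were DESeq2 1.42.0, other normalizations, filters and thresholds, the block, and removal of libraries or sets. The edgeR fits were tested on simulated counts with known changed genes. Those counts were drawn without differences between sets, so the block was not tested under such differences. Figures were drawn with Matplotlib 3.10.9.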

Additional observations from a re-analysis of the deposited data

Results flagged for a closer look

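Dixon's 95% critical value was applied to the 4 libraries of each group for the 8 tested BMP genes, 15 other named genes and the depth. Of 48 such groups, 3 held a library set apart, and chance gives about 1 in 20, here 2.4. Bmpr2 was at 1218 normalized counts in the Control library of Set 1 and at 1016 to 1032 in the other Control libraries. Smad7 was at 1292 in that same library and at 576 to 675 in the others. Notch3 was at 70.8 in the Control library of Set 3 and at 38.7 to 42.0 in the others.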

How the results depend on the processing

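With condition alone, edgeR called 0 of the 8 BMP genes (0 of 10 with no expression filter) under each normalization, filter, threshold and removal of a library or set that was tried, and DESeq2, run with 1 setting on all sets, called 0 of 9. The replicate block called 1 (Grem1), as did DESeq2 with the block, both on all sets. The block without a fold-change limit passed 3, and the block on 3 sets called 0 to 1. Over all genes, 515 calls (423 higher, 92 lower) became 960 with the replicate block (645 and 315), 900 with DESeq2 (708 and 192), 1070 with DESeq2 and the block, 338 at an adjusted p below 0.05, 832 without a fold-change limit and 3367 with the block and no limit. Removal of libraries or sets gave 0 to 1007, and the block without Sets 1, 2, 3 and 4 gave 69, 1330, 81 and 159. For the other pathway genes, 7 calls became 0 to 9 on removal of libraries or sets, 11 with the block without Set 2, 0 with the block without Set 1, 3 or 4, and 19 with the block and no limit. The 4 Notch genes became 2 when at least 10 counts were required in every library, which removes Heyl and Nrarp, and 0 to 4 on removal of libraries or sets with condition alone, and 3 to 4 with the block on 3 sets. Log2 fold changes near 0 changed sign. Bmp2 was -0.029 with the replicate block, -0.089 with DESeq2 and the block, -0.18 and -0.26 with the block without Sets 2 and 3, and -0.26 to 0.55 on removal of libraries or sets. On such removal Bmp4 was -0.54 to 0.13, Bmpr1a -0.099 to 0.018 and Smad6 -0.15 to 0.083, and Smad6 was 0.031 and 0.022 with the block without Sets 1 and 4. Of 192 alternative values for the 8 genes, 174 kept their sign and stayed uncalled. Some of these passed the adjusted p alone, among them Smad7 (0.0386) and Bmpr2 (0.0591) with the block on all sets. Of the rest, 15 changed sign and 3 gained a call. The cause was not tested. A pseudocount of 2 moved no ratio of these genes by more than the spread between sets. Depth limits Bambi, at 19 to 41 reads per library.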

Other observations

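With the set as a block and no fold-change limit, 19 of the 38 other pathway genes passed the adjusted p in edgeR, 13 higher and 6 lower, or 50%, beside 27.1% of all genes. The 6 lower were Gdf6, the antagonist Chrd (log2FC -0.93, adjusted p = 0.0452), the type I receptor Bmpr1b (-0.80, adjusted p = 0.0780), the BMP-binding proteins Crim1 (-0.66, adjusted p = 0.0368) and Bmper (-0.42, adjusted p = 0.0609), and the Smad-interacting protein Tob1 (-0.62, adjusted p = 0.0444). Smad1 (0.30, adjusted p = 0.0441) and Smad5 (0.32, adjusted p = 0.0572), which carry the BMP signal, were among the 13 higher. The other Smads of the 38 did not pass, with Smad9 lower (-0.28, adjusted p = 0.172) and Smad4 higher (0.20, adjusted p = 0.156). These genes were named after their values were seen. Bmp10 had 0, 10, 0 and 0 reads in Control and 0, 4, 0 and 0 in Notch3IC, all of them in Set 2.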
